A study of Drosophila melanogaster with 3 samples.

Results

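The proteins of the large subunit of the cytosolic ribosome are encoded in the fly genome by genes whose symbols start with RpL. The 54 protein-coding genes with such a symbol, RpLP0, RpLP1 and RpLP2 included and the mitochondrial mRpL genes left out, were taken from the 13968 protein-coding genes of the annotation. They were examined in chromatin immunoprecipitation with sequencing (ChIP-seq) of wek, a zinc finger protein that acts as adaptor in the Toll pathway. A gene was called bound when the summit of a peak, the base of highest signal in a region kept by the authors' reproducibility filter, fell no more than 500 bp from a transcription start site (TSS) of that gene. By that rule 46 of the 54 RpL genes were bound.

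The samples were 3 biological replicates of whole Drosophila melanogaster embryos of 0 to 16 hours, males and females pooled. All came from 1 transgenic line, strain wek-GFP, that stably expresses wek with GFP at its C terminus (wek-eGFP in the labels' free text). There was 1 group, so no condition could be compared, and binding was averaged over all cell types and stages of those embryos. The labels' free text calls the libraries input controls, whereas their assay title and antibody label say ChIP of wek; they were treated as wek ChIP, and no untagged line is analysed here.

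The large subunit joins amino acids in its peptidyl transferase centre, lets the growing chain out through a tunnel, and recruits elongation factors with a stalk of acidic proteins. Ribosomal protein genes are among the most actively transcribed genes of growing cells, and loss of 1 copy of many of them gives the Minute phenotype of slow growth and thin bristles in flies. In Drosophila many of their promoters carry a polypyrimidine initiator, also called TCT, in place of the usual initiator, and transcription from it is known to use the TBP-related factor TRF2.

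The sequences around 5 bound start sites and 2 that were not bound are shown here, since they differ in the letters at the TSS described further on. Each runs from 110 bases upstream to 29 bases downstream of the 5′-most TSS, which is base 111, on the strand of the gene, from the RefSeq genome on the dm6 assembly. Capitals mark the polypyrimidine initiator words (CTTT with T or C on each side) where they start within 10 bp of the TSS. Capitals also mark, on either strand, TATCGATA (the DNA replication-related element or DRE, site of the factor DREF), GGTCACAC (site of the factor M1BP), CACGTG (an E-box) and CCGGAA, whose reverse complement is TTCCGG. RpL35A (chr3R:5467072-5467211, minus strand), RpL13A (chr3R:5624364-5624503, plus strand), RpL10Ab (chr3L:11822741-11822880, plus strand), RpL6 (chr3R:31596175-31596314, minus strand) and RpL37-1 (chrX:15139338-15139477, minus strand) were bound. RpL40 (chr2L:4227589-4227728, plus strand) was not bound but had a weaker region on its TSS, and RpL10Aa (chr3R:15037256-15037395, plus strand) was not bound.
RpL35A: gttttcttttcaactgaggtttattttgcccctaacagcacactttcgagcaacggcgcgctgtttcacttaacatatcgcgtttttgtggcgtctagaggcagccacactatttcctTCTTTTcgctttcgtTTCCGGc
RpL13A: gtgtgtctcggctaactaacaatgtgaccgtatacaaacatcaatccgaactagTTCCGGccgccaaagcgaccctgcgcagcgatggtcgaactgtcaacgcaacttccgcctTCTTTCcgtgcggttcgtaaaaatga
RpL10Ab: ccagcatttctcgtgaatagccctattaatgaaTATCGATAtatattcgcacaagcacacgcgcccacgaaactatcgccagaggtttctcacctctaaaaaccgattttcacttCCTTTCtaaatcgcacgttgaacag
RpL6: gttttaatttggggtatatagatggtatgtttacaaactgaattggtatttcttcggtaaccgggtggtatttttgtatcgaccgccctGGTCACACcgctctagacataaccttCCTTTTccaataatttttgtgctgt
RpL37-1: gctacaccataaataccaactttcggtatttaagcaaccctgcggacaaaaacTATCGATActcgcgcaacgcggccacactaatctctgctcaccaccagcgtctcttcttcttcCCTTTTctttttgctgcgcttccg
RpL40: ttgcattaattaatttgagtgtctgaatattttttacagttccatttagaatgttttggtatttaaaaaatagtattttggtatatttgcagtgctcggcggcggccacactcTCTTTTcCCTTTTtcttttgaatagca
RpL10Aa: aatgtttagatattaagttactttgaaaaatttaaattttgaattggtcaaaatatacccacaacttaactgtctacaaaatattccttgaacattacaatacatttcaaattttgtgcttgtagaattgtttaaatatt
In the 5 bound genes and in RpL40 an initiator word starts between 3 and 8 bases downstream of the TSS. RpL10Aa has none, and none of the other marked words.

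Of the RpL genes, 46 of 54 (85.2%) were bound, against 2155 of 13968 (15.4%) over all coding genes. The same rule was applied to the 3582 regions of highest signal in each replicate, as many as there were peaks. In replicate 1, 45 RpL genes (83.3%) were bound, against 16.0% of all coding genes. In replicate 2, 44 RpL genes (81.5%) were bound, against 13.0%, and in replicate 3, 46 (85.2%), against 16.1%. The mean was 83.3% ± 1.85 for RpL genes and 15% ± 1.75 for all coding genes (SD, n = 3 each). All 3 replicates called 41 RpL genes bound (75.9%), against 7.87% of all coding genes, and each of the 41 was also bound in the peak list. In every replicate the share of RpL genes bound was thus far above that of all genes, and the distance was many times the spread between replicates. Genes with more start sites have more chances to be bound, but among genes with a single annotated TSS 24 of 29 RpL genes (82.8%) were bound, against 1141 of 10269 (11.1%).

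Small-subunit genes (RpS, with sta) were bound in 30 of 39 cases (76.9%). The large-subunit genes of the mitochondrial ribosome, made by a separate gene family, were bound in 8 of 47 cases (17%), close to the share over all coding genes. Mitochondrial small-subunit genes (mRpS) were bound in 11 of 26 cases (42.3%). In the replicates the share was 83.3% ± 1.85 for RpL genes, 70.9% ± 8.24 for RpS genes, 38.5% ± 3.85 for mRpS genes and 18.4% ± 2.46 for mRpL genes (SD, n = 3 each). RpS genes had a lower share than RpL genes in each replicate; no test of that difference was run. Of 15 other genes of ribosome assembly, such as the export adaptor Nmd3 and the nucleolar protein Fib, 5 were bound, and of 7 genes of the factors eEF1, eEF2 and eEF5, which carry out polypeptide elongation, 5 were bound.

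**Figure D1:**
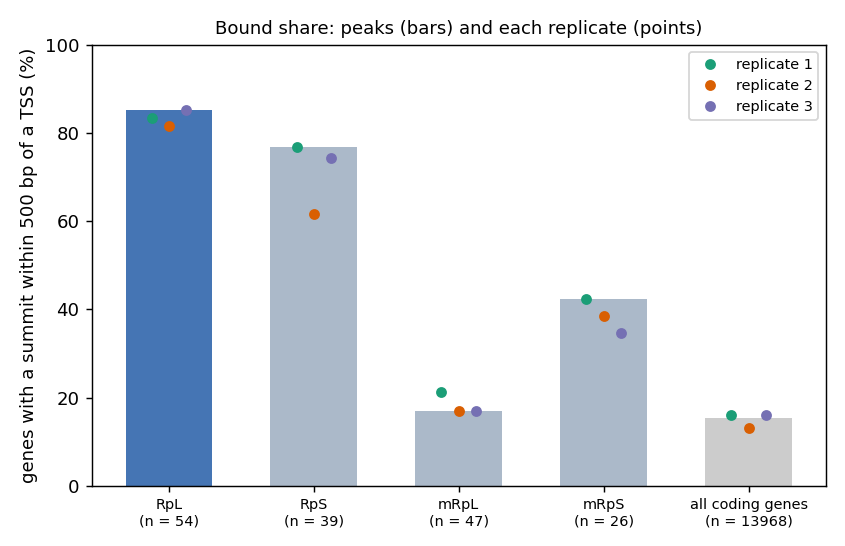
Share of genes bound (y axis, %) in the list of peaks (bars) and in the 3582 highest regions of each replicate (points), for RpL genes, 3 other families of ribosomal protein genes and all coding genes. RpL genes stand at 85.2% in the peak list with replicate points from 81.5 to 85.2%, mRpL genes at 17% and all coding genes at 15.4%.

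The regions at RpL genes were also strong ones. Signal values come from the authors' caller and serve here only to rank regions within 1 list, where rank 1 is the strongest; sequencing depth is unknown. The peaks at the 46 bound RpL genes had a median signal of 445 and a median rank of 566.5 among 3582 peaks, against a median signal of 228 and a median rank of 1675 for all bound coding genes. Their signals ran from 160 at RpL26 to 2022 at RpL11, with quartiles of 326 and 638. The strongest 25% of the peaks held 34 of the 46 bound RpL genes (73.9%), against 30.3% of all bound coding genes. RpS genes had a median signal of 439, close to that of RpL genes. The 46 bound RpL genes had 46 distinct peaks, of which 20 also lay within 500 bp of a TSS of 1 or more other coding genes.

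The 10 strongest are given with their rank in every list. RpL11, whose protein binds the 5S rRNA together with RpL5, had a signal of 2022 and rank 27 among the peaks. Its signal was 1127, 469 and 436 in replicates 1, 2 and 3, at ranks 25, 44 and 18 (mean 29 ± 13.5, SD, n = 3). RpL35A encodes a protein that bacterial ribosomes lack, and its peak had a signal of 1755 and rank 38. It held ranks 38, 36 and 52 in the replicates (mean 42 ± 8.72, SD, n = 3), with signals of 993, 504 and 299. RpL11 and RpL35A were thus among the strongest 52 regions of all 3 replicates.

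RpL31, a protein at the rim of the exit tunnel, had a signal of 1602 and rank 55, and ranks 53, 80 and 29 in the replicates. RpL24, which in yeast forms a bridge to the small subunit, had a signal of 1287 and rank 88, and ranks 88, 115 and 47. RpLP2, an acidic protein of the stalk, had a signal of 1081 and rank 117, and ranks 113, 72 and 219. For RpL31 and RpL24 replicate 3 gave the best rank, and for RpLP2 the poorest.

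RpL27A had a signal of 982 and rank 133, and ranks 177, 172 and 75 in the replicates. RpL13A, whose mammalian counterpart is also known as a translational repressor when released from the ribosome, had a signal of 837 and rank 191, and ranks 194, 348 and 109. RpL7 had a signal of 831 and rank 195, and ranks 202, 277 and 121. In these 3 genes too, replicate 3 placed the promoter higher than the other replicates did. RpLP0, the protein on which the stalk is built, had a signal of 770 and rank 219, and ranks 267, 184 and 214. RpL14 had a signal of 717 and rank 250, and ranks 295, 278 and 165. Across these 10 genes the poorest rank in any replicate was 348, that of RpL13A in replicate 2, of 3582 highest regions.

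Across the 44 RpL genes with a region in the window of every replicate list, Spearman's rho of the signals was 0.864 between replicates 1 and 2, 0.78 between 1 and 3 and 0.635 between 2 and 3. These are correlations across genes of the same 3 libraries, given as a description. At a q-value of at most 0.01 the deposited lists held 8919, 2216 and 9834 regions in replicates 1, 2 and 3, so replicate 2 was the weakest by that measure, and 5 RpL genes were missing from 1 or more replicates although they had a peak. RpL10, which sits beside the tRNA sites and is known for its late assembly with Nmd3, had rank 2454 among the peaks and ranks 3375, 3879 and 1966. RpL35, near the tunnel exit, had rank 1584 and ranks 1095, 5815 and 3215. RpL38, known in mouse for its part in translation of Hox mRNAs, had rank 2537 and ranks 3954 and 1496 in replicates 1 and 2, with the nearest region of replicate 3 at 30.3 kb. RpL10 and RpL35 thus fell outside the 3582 highest regions of replicate 2 alone, and RpL38 outside those of replicates 1 and 3. RpL26, also near the tunnel exit, had rank 3050 and ranks 4275 and 2735 in replicates 1 and 3, with the nearest region of replicate 2 at 8 kb. RpLP0-like had rank 1495 and ranks 1238 and 1134 in replicates 1 and 3, with the nearest region of replicate 2 at 1.02 kb. RpL26 and RpL38 were each bound in 1 replicate, and the other 3 in 2. RpL23 counted as bound in replicate 2 only through a region at position −494 (upstream of the TSS), of rank 2750, while the region at its TSS had rank 8507 there.

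**Figure D2:**
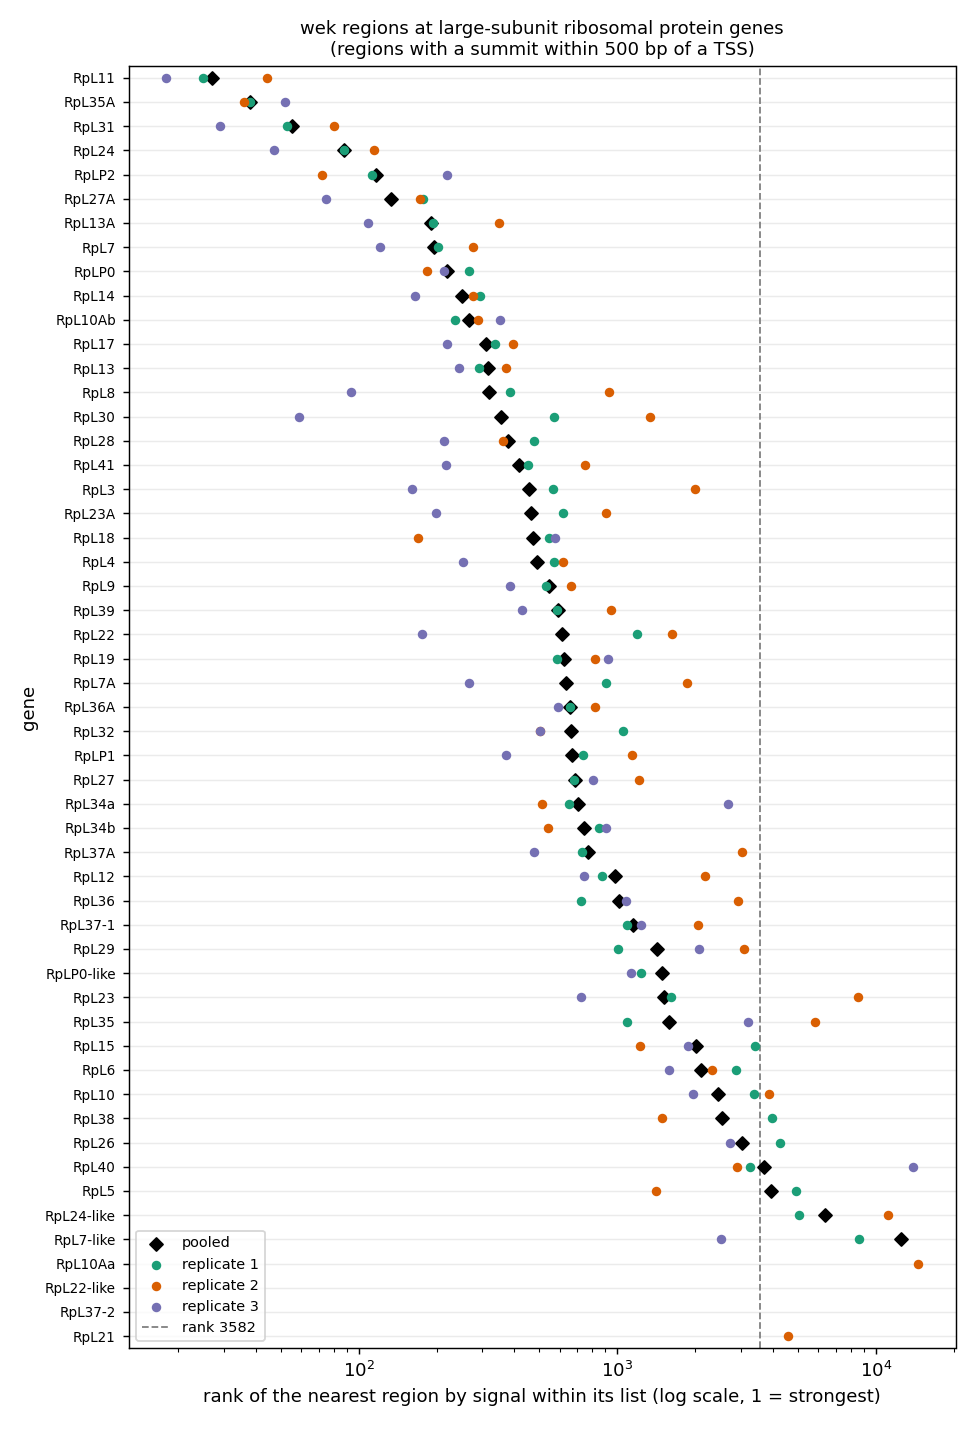
Rank of the nearest region by signal (x axis, log scale, 1 is the strongest) for RpL genes (y axis) in the pooled list and in the 3 replicates; only regions with a summit within 500 bp of a TSS are drawn, and the dashed line marks rank 3582, the number of peaks. RpL11 at the top lies between ranks 18 and 44 in all replicates, the pooled markers of the 8 genes at the bottom lie right of the line or are missing, while RpL40, RpL5 and RpL7-like have 1 or 2 replicate points left of it.

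By position in the subunit, all 4 stalk genes were bound. RpLP2 and RpLP0 were the strongest of them, RpLP1 had a signal of 388 and RpL12, at the stalk's base, had 315. All 7 genes of proteins around the exit tunnel were bound, with signals from 160 at RpL26 to 1602 at RpL31 and a median of 481. The 3 genes whose proteins reach towards the peptidyl transferase centre were bound, with signals of 628 at RpL8, 501 at RpL3 and 182 at RpL10. Of the 5S rRNA partners, RpL11 had the strongest peak of all RpL genes and RpL5 had none. The other 32 genes of the core set were bound in 30 cases. Of all RpL genes 85.2% were bound, so full counts in such small groups are nothing particular to a position in the subunit. The weakest RpL peak and 1 of the 3 strongest were both at genes of the exit tunnel.

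The 8 genes without a bound promoter were of 2 kinds. Of the 6 genes set apart here as relatives or paralogs of a main gene, 1 was bound, against 45 of the other 48 RpL genes (93.8%). Over all coding genes 15.4% were bound. The paralogs RpL34a and RpL34b, both bound, were counted among the 48. This division was chosen after the values were seen, so the difference is a description and supports nothing. RpL24-like, RpL7-like and RpLP0-like correspond to the yeast assembly factors Rlp24, Rlp7 and Mrt4, and only RpLP0-like was bound, with a signal of 245 against 770 at RpLP0. RpL24-like had no peak nearer than 4.23 kb and a pooled region with a signal of 102 at rank 6349 (ranks 5036 and 11151 in replicates 1 and 2, none in the window in replicate 3), where RpL24 had a peak of 1287. RpL7-like had no peak nearer than 6.99 kb and a pooled region of 66.7 at rank 12482 (ranks 8580 and 2521 in replicates 1 and 3, none in replicate 2), where RpL7 had a peak of 831. In each of these pairs the ribosomal gene had the stronger region.

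The paralogs showed the same order. RpL22-like, known for expression in the male germline, had no peak nearer than 19.8 kb, where RpL22 had a peak of 419 and ranks 1193, 1636 and 175 in the replicates. RpL10Aa had no peak nearer than 50.4 kb, where RpL10Ab had a peak of 689 at rank 267 and ranks 236, 290 and 352. RpL37-2 had no peak nearer than 8.14 kb, where RpL37-1 had a peak of 285 at rank 1154 and ranks 1088, 2053 and 1236. RpL22-like and RpL37-2 had no region in the window in any list, and RpL10Aa had a region of replicate 2 alone, at rank 14558. RpL34a and RpL34b differ from these pairs: both were bound, with signals of 377 and 366 at ranks 703 and 742. RpL34a held ranks 652, 513 and 2675 in the replicates and RpL34b ranks 851, 542 and 908, so their order was not the same in each.

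RpL40, RpL5 and RpL21 were the core genes without a bound promoter. RpL40, made as a fusion with ubiquitin, had a pooled region with its summit 2 bp before the TSS, a signal of 143 and rank 3690, just under the weakest peak, 146.3. It was within the highest regions of replicates 1 and 2, at ranks 3273 and 2907, and at rank 13923 in replicate 3. A stronger peak, of signal 739 and rank 233, lay 688 bp upstream of the RpL40 TSS and 31 bp from the TSS of CG3702. The strongest pooled region left out of the peak list, at any gene, also had a signal of 146.3, and the member just inside was RpL26 with 160. RpL40 thus lay just outside the peak list and well outside the highest regions of replicate 3.

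RpL5 and RpL21 lie near the centromere on arm 2L, beyond the last peak of that arm. That peak was 1369 kb from the arm's end. Of the 22 coding genes beyond it none was bound, which choosing genes beyond the last peak largely fixes in advance. A pooled region lay in the window of 5 of them, against 52.0% of all coding genes, and no test was run. The strongest of the 21 pooled regions there was the one 2 bp downstream of an RpL5 TSS, with a signal of 138 at rank 3938. RpL5 held ranks 4928 and 1417 in replicates 1 and 2, and the nearest region of replicate 3 was 297 kb away. RpL21 had only a region of replicate 2, 57 bp upstream of its TSS at rank 4565. How many reads can be placed in this stretch was not tested. On arm 3L, RpL15 also lies towards the centromere, and it was bound in all 3 replicates with a signal of 203. RpL38, towards the centromere on arm 2R, had a peak of signal 179 but was bound in only 1 replicate. By arm, 6 of 6 RpL genes on X, 9 of 13 on 2L, 12 of 14 on 2R, 10 of 10 on 3L and 9 of 11 on 3R were bound, against 85.2% of all RpL genes. Shares of all coding genes by arm are not given, so nothing is concluded from differences between arms.

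With every region of the relaxed pooled list counted, 50 RpL genes (92.6%) had a summit within 500 bp, against 52.0% of all coding genes. The 4 genes added were RpL40, RpL5, RpL24-like and RpL7-like. In all, 5 RpL genes were bound in no replicate: RpL10Aa, RpL21, RpL22-like, RpL24-like and RpL37-2.

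At the bound RpL genes the summit lay close to the TSS. Its distance from the nearest annotated TSS had a median of 16.5 bp, and 37 of the 46 summits (80.4%) were within 50 bp, against 31.6% over all bound coding genes. Within 25 bp were 28 (60.9%), against 16.7%. With positions upstream of the TSS written as negative, the median position was −15.5 for RpL genes, against −64 for all bound coding genes. Upstream of the nearest TSS lay 33 of the 46 summits (71.7%), against 72.8%. This depends on the TSS chosen: relative to the 5′-most TSS the RpL share upstream was 54.35% and the median position −5. By annotation 25 summits lay outside the gene, 19 in its 5′ UTR and 2 in an intron. The median peak width was 272 bp at RpL genes, against 370 bp over all bound genes. The whole peak list and the pooled list also had a median width of 370 bp, so widths were not read as breadth of binding. Among bound genes with a single TSS, where no choice of TSS is made, 19 of 24 RpL summits (79.2%) were within 50 bp, against 29.8% over all such bound genes, the median position was −17, against −77, and 70.8% were upstream, against 79%. No test of these differences was run, since genes are not replicates.

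In replicates 1, 2 and 3 the share of bound RpL genes with the summit within 50 bp was 82.2%, 65.9% and 84.8% (mean 77.6% ± 10.2, SD, n = 3). Over all bound coding genes it was 31.9%, 20.2% and 43.6% (mean 31.9% ± 11.7, SD, n = 3). Replicate 2 was lowest in both, and the lowest RpL share was above the highest share of all genes. RpS genes had 83.8% ± 7.77 within 50 bp (SD, n = 3), close to the RpL genes. The summit was upstream of the nearest TSS in 68.9% ± 5.33 of bound RpL genes, against 43% ± 10.5 of bound RpS genes (SD, n = 3 each). In each replicate the RpL share was the higher. RpS genes had a median of 2 annotated TSSs, against 1 for RpL genes. No RpS share relative to the 5′-most TSS is given, so whether this difference depends on the TSS chosen was not tested.

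**Figure D3:**
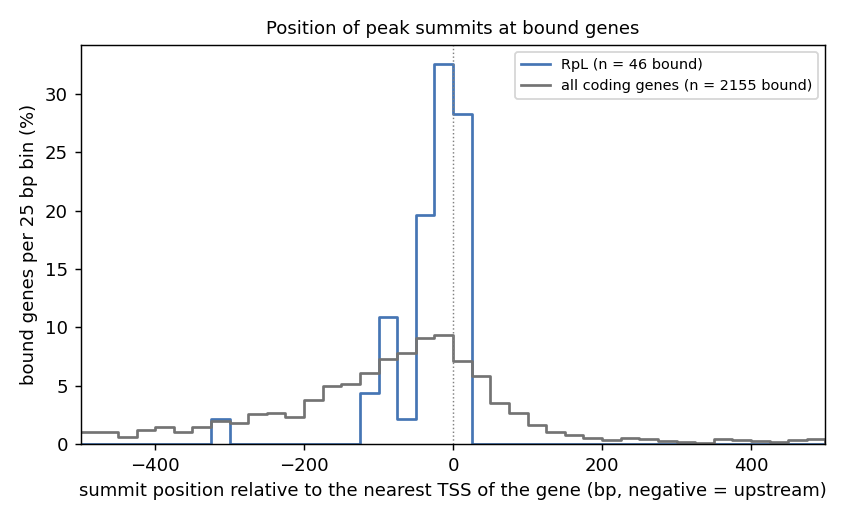
Position of the peak summit relative to the nearest TSS of the gene (x axis, bp, negative is upstream) for the 46 bound RpL genes and all 2155 bound coding genes, as the share of genes in bins of 25 bp (y axis, %). The bin just upstream of the TSS holds 32.6% of RpL genes and the one just downstream 28.3%, and no RpL summit lies beyond that bin downstream.

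The summits of a given promoter were also compared between replicates. In each list the summit nearest to a TSS was taken, whatever its rank, so small distances between replicates are made likely by that choice. The same distance over all bound coding genes is not given, and nothing is concluded from it. In 43 of the 46 bound RpL genes every replicate list, taken whole, had a region in the window; the median distance between the outermost of the 3 summits was 35 bp, and in 40 genes it was at most 100 bp. RpL13A is an example: its summits lay at −8 in the peak list and at −8, −4 and −11 in the replicates. At RpL35A the summit lay at −68 in the peak list and at −72, −82 and −35 in the replicates, and at RpL11 at −90 and at −83, −103 and −79. RpL35A and RpL11, the strongest 2 RpL genes, thus had summits clearly upstream in each replicate, while RpL13A had its summit on the TSS. RpLP2, another strong gene, had its summit at −92, with −60, −131 and −12 in the replicates, which is a wider spread.

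A few genes stood off. RpL18 had its summit at −307 in the peak list and at −8 in replicate 3, and the peak was also within 500 bp of a TSS of Neos. RpL34b had it at −108 and RpL26 at −102. In all, 20 bound RpL genes shared their peak with the window of 1 or more other coding genes, such as RpL13A with Dph4 and Spec2, RpL7 with Ripalpha, RpLP0 with CG7130, RpL14 with Nelf-E, RpL13 with Dref and RpL28 with eIF1, and the other 26 did not. A peak that was counted only for the coding gene with the nearest TSS gave 44 bound RpL genes.

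**Figure D4:**
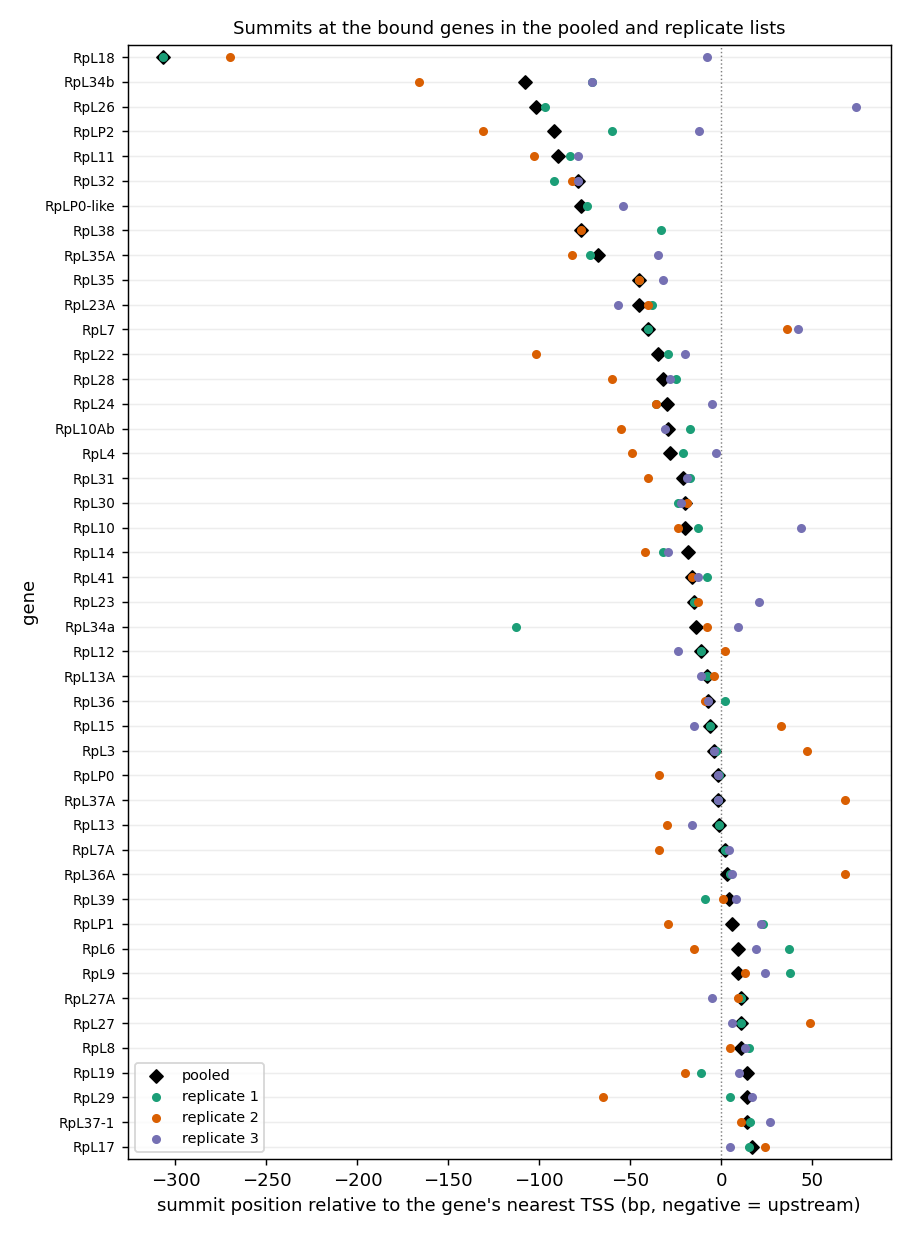
Summit position relative to the nearest TSS (x axis, bp, negative is upstream) at bound RpL genes (y axis, sorted from upstream to downstream) in the pooled list and in the 3 replicates; for a gene with several TSSs the nearest one can differ between lists. Most points lie within 50 bp of 0; RpL18 at the top has summits at −307 in the pooled list and −8 in replicate 3.

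The polypyrimidine initiator, searched as CTTT with T or C on each side, on the gene's strand and starting within 10 bp of a TSS, was present at 47 of the 54 RpL genes (87%), against 4.07% of all coding genes. The word started at a median of 3 bp downstream of the TSS. In 14 RpL genes it started no more than 2 bp from the annotated TSS, and in the rest further downstream. RpS genes had it in 30 of 39 cases (76.9%). Among the bound RpL genes 42 had the word, with a median signal of 468, and RpL34a, RpL17, RpL12 and RpLP0-like did not, with a median signal of 346. RpL10Aa, RpL22-like and RpL24-like also lacked it and were not bound. RpL40, RpL5, RpL21, RpL7-like and RpL37-2 had it and were not bound. Bound promoters and initiator words coincided in most RpL genes but not in each. With 85.2% of RpL genes bound and 87% having the word, most would have both even if the 2 were unrelated.

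Of the 47 RpL genes with an initiator word 42 were bound, with a median signal of 468. Outside the cytosolic ribosome, with RpL and RpS genes both left out, 117 of 491 coding genes with an initiator word were bound (23.8%), against 14.7% of the 13384 without. Those 117 had a median signal of 223 and a median position of −38, and 34.2% of them had the summit within 50 bp. RpS genes, most of which carry the word, had a bound share of 76.9%, a median signal of 439 and 83.3% of summits within 50 bp, nearer to the RpL values. No test of these differences was run, and other genes with the word were not matched to RpL genes for expression, which these files do not measure.

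Further words were searched on both strands within 100 bp to each side of the summit, at the 46 RpL peaks and at all 1832 peaks with a summit within 500 bp of a coding TSS. Matches are letters only, not sites shown to be occupied. The initiator words, on either strand, were in 42 RpL windows (91.3%), against 42.3% of all promoter peaks. The DRE word TATCGATA was in 11 RpL windows (23.9%), against 7.1%, and its core CGATA, which the DRE word contains, in 30 (65.2%), against 37.2%. The M1BP word GGTCACAC was in 7 (15.2%), against 6.93%. The 30 RpS windows were also above all promoter peaks for each of these words, so this was not particular to RpL genes. Their shares were 80% for the initiator words, 23.3% for TATCGATA, 60% for CGATA and 13.3% for GGTCACAC. TATCGATA was in RpL10Ab, RpL28, RpL34a and RpL37-1, among others, and GGTCACAC in RpL27A, RpL30, RpL6, RpL7 and RpLP0, among others. No RpL window held both words, but the share of all promoter peaks with both is not given here. With so few windows, nothing is concluded from that. All 11 TATCGATA matches nearest the TSS started upstream of it, at a median of −55, and so did all 7 GGTCACAC matches, at a median of −21. The sequences of RpL10Ab, RpL37-1 and RpL6 printed above show this arrangement.

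CACGTG was in 9 RpL windows (19.6%), against 3.11% of all promoter peaks and 1 of 30 RpS windows (3.33%). It was in RpL11, RpL24, RpL29, RpL35, RpL37-1, RpL37A, RpL6, RpL7 and RpL8. CCGGAA, which holds the GGAA core of the sites of ETS family factors, was added after the words of the RpL summits had been counted. It was in 22 RpL windows (47.8%), against 7.86% of all promoter peaks and 9 of 30 RpS windows (30%), and its nearest match started at a median of 20.5 bp downstream of the TSS. The RpL35A and RpL13A sequences above carry it downstream and upstream of the TSS. Since the word was picked on these windows, its share there is a description and supports nothing.

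For the remaining words the RpL share was below or close to that of all promoter peaks, with no test run. CAGCTG, another E-box, was in none of the 46 RpL windows (exact 95% interval 0 to 7.71%), against 15.2% of all promoter peaks and 6 of 30 RpS windows (20%). GAGAGA, read by the GAGA factor, was in 2 (4.35%, exact 95% interval 0.531 to 14.8%), against 12.7%. Both intervals cover the number of windows only and were not used as a test, since genes are not replicates. GAATACCC, a word frequent at the peaks of these data in earlier results, was in 2 RpL windows (4.35%), close to the 4.59% of all promoter peaks; those 2 were RpL11 and RpL31, of ranks 27 and 55.

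The same words were counted around the 5′-most TSS of every gene, bound or not. Summits of bound RpL genes lay at a median of −5 from that TSS. The windows thus largely overlap the summit windows, and the count is not independent of them. TATCGATA was within 100 bp of that TSS in 14 of the 54 RpL genes (25.9%), against 7.83% of all coding genes. CACGTG was there in 13 (24.1%), against 2.88%, and CCGGAA in 24 (44.4%), against 5.93%. GGTCACAC was there in 7 (13%), against 6.74%. The shares were close to those at the summits, which overlapping windows make likely. CCGGAA had been picked on the summit windows, so its share here is a description too. CAGCTG was near the 5′-most TSS of 3 RpL genes (5.56%), against 13.8% of all coding genes. Among bound RpL genes the median signal was 415 with TATCGATA and 481 without, 586 with GGTCACAC and 433 without, and 410 with CCGGAA and 498 without; no test was run.

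**Figure D5:**
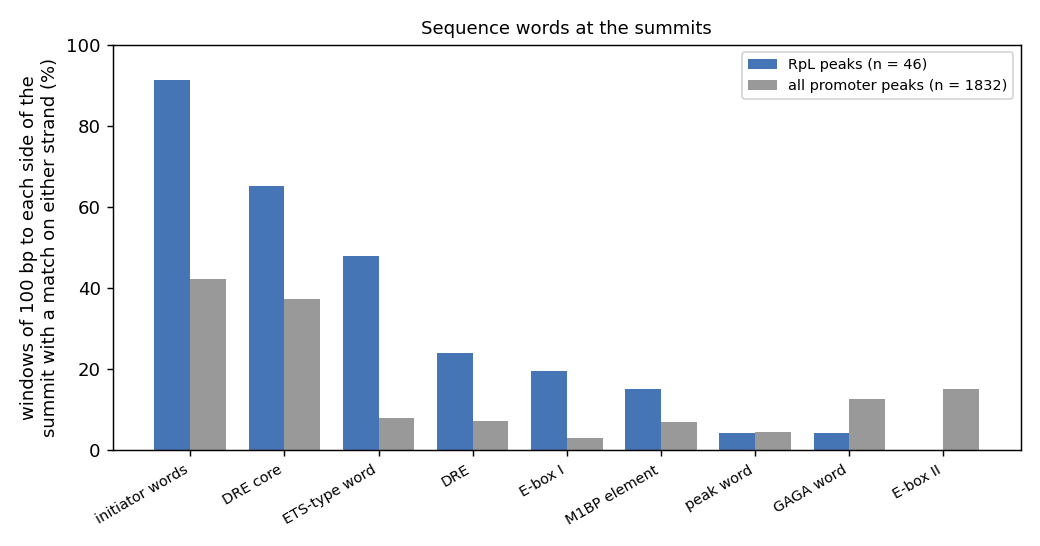
Share of windows of 100 bp to each side of the summit that hold a word on either strand (y axis, %), at RpL peaks and at all promoter peaks. The bars are named as in the text: the ETS-type word is the one with the GGAA core, E-box I and E-box II are the first and the other E-box, and the peak word is the one at RpL11 and RpL31. RpL bars are the higher ones for the first 6 words, nearly level for the next and lower for the last 2, with 0 RpL windows for CAGCTG.

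Introns of ribosomal protein genes often host small nucleolar RNAs, which guide the modification of rRNA. In the annotation 16 RpL genes held 33 snoRNA genes, and 15 of the 16 were bound, near the 85.2% of all RpL genes and so nothing particular to the hosts. The bound hosts had a median signal of 566, against 388 for the 31 bound RpL genes with no snoRNA gene; no test was run.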

How the data were processed

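ChIP-seq of GFP-tagged wek was deposited for 3 replicates as lists of regions on dm6, per the labels. The authors deposited a relaxed list of 30000 regions for each replicate and for the pooled replicates, and a thresholded list of 3582 regions from the irreproducible discovery rate, identical to the strongest 3582 pooled regions. The aligner and peak caller are not stated by the labels or headers used. A deposited region has the signal of the authors' caller, its −log10 q-value and its summit. Many −log10 q-values deposited by the authors were tied, so ranks came from the signal. Depth is unknown, and the binomial interval covers the number of windows only. No region was identical between replicates; they are biological replicates per the labels.

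Start sites came from Ensembl release 115 (BDGP6.54) and bases from RefSeq's copy of the assembly. Nearest summits, shares and word counts were computed in Python 3.11.15 with pandas 2.3.3, numpy 2.4.6 and scipy 1.17.1, and checked on simulated data. Values in every list are written out for the 10 strongest bound genes, all genes not bound, genes missing in a replicate and paralog pairs. 1 gene is in the counts but is not reported singly or drawn in the plots by gene. No set test was run. Members, lists and words were chosen with earlier results of these data known. Alternatives changed the window, list, TSSs, replicates and word windows.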

Additional observations from a re-analysis of the deposited data

How the results depend on the processing

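The number of bound RpL genes lay between 40 and 50 under all 11 alternatives, and the number bound in all 3 replicates between 36 and 44. Leaving out 1 replicate gave 40 to 44 bound genes, 41 to 44 bound in both others, median signals of 468.8 to 493.1 and upstream shares of 67.5 to 70.45%. The peak list itself was not remade without a replicate. Each gene lost lacked a region among the 3582 highest at its peak in a replicate that was kept. RpL26 and RpL38 were lost whichever replicate was left out; without replicate 1 or 3, RpL10, RpL23, RpL35 and RpLP0-like were lost too. With only the 5′-most TSS, the median summit position was −5 and the upstream share 54.35%, so the side of the TSS depends on which TSSs are counted. The initiator share was 70.37% within 5 bp of a TSS and 92.59% within 20 bp. With 50 bp to each side of the summit, CGATA was in 45.65% of RpL windows and GAGAGA and GAATACCC in 0. TATCGATA and GGTCACAC were then in 13.04% each, CACGTG in 10.87%, CCGGAA in 39.13% and the initiator words in 80.43%, against 4.2%, 3.66%, 1.31%, 4.86% and 23.8% of all promoter peaks. No paired analysis was possible because there is 1 group. Depth is unknown, so a region missing from replicate 2 cannot be told apart from a weaker library. Genes near centromeres and shared promoters limit single-gene calls.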
